A study of Drosophila melanogaster with 2 samples.

Results

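The genes described here are 7 transcription factor genes of Drosophila melanogaster that act in neural stem cells (neuroblasts) and in other embryonic tissues, namely cas, grh, svp, pros, dpn, zfh1 and zfh2. They were chosen by name, as a list, with earlier results of these data known. The genes were followed through lists of peaks from chromatin immunoprecipitation and sequencing (ChIP-seq) of the LIM-homeodomain factor Awh. Per the labels, whole embryos of the transgenic strain Awh-GFP, collected 0 to 24 h after laying, were precipitated through the fluorescent tag of an Awh-eGFP fusion. One label field names Awh and not the tag as the antibody target. The series holds 1 group with 2 biological replicates, and no control library was analysed here. A whole embryo mixes all tissues, and neither the promoter that drives the fusion nor the number of insertions or clones is given in the sources used here.

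A peak of the conservative list, the stricter of the lists made from both replicates, was given to the protein-coding gene with the nearest transcript start, and overlapping peaks were joined into 1 region. By this rule 11 of the 4781 regions belonged to 3 of the 7 genes: 5 to grh, 4 to zfh1 and 2 to zfh2. The genes cas, svp, pros and dpn had none. In the thresholded list of replicate 1 alone 5 regions belonged to these genes and in that of replicate 2 alone 7, and in both lists grh, zfh1 and zfh2 were the genes with a region. The share of members with a region was 42.9%, and that of all 13741 protein-coding genes that could be assigned was 20.4%. These shares are not alike in gene size. The length of chromosome nearest to a gene's starts had a median of 34.4 kb for the members and 4.32 kb for all genes. Among genes with at least as much of it as a given member, the share with a region ran from 29.6% (for dpn) to 49.0% (for zfh1). With a single group and no control library there is no test here: values are set beside the spread between the replicates and beside all regions. Read depth is unknown, since the lists carry no read totals.

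Neuroblasts are the stem cells of the insect nervous system. Each divides asymmetrically to renew itself and to give off a smaller cell that forms neurons or glia, and as it ages it expresses a series of temporal transcription factors that set the kind of progeny. In this system cas (castor, a zinc finger protein) and grh (grainyhead, the founder of the CP2-type family, also a regulator of epidermal barrier genes) act late in the series, svp (seven-up, an orphan nuclear receptor of the COUP-TF type) closes an early step, dpn (deadpan, a bHLH repressor) maintains self-renewal, and pros (prospero, an atypical homeodomain protein) enters the nucleus of the smaller cell and ends self-renewal. The zinc finger homeodomain genes zfh1 and zfh2 are both expressed in the nervous system, zfh1 also in mesoderm and zfh2 also in appendage primordia. LIM-homeodomain proteins such as Awh bind sites with the core TAATTA.

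The sequences around 4 summits are shown because they carry the strongest binding at zfh2 and zfh1 and the TAATTA sites found at these genes. Each is the plus strand of dm6, 60 bases on either side of the summit, read from the RefSeq Release 6 assembly, with TAATTA and ACAGTG (on either strand, so CACTGT too) in capitals. The zfh2 upstream summit lies in chr4:497876-497996, the zfh2 promoter summit in chr4:501554-501674, the strongest zfh1 summit in chr3R:30781748-30781868 and the zfh1 upstream summit in chr3R:30761339-30761459.
zfh2 upstream: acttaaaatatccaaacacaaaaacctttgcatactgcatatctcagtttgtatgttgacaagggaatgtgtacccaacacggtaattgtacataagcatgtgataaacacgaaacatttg
zfh2 promoter: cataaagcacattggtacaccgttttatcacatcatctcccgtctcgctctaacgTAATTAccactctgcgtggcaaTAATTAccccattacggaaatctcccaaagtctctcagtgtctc
zfh1 strongest: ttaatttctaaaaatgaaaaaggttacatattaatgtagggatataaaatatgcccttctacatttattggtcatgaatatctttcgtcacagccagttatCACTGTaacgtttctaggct
zfh1 upstream: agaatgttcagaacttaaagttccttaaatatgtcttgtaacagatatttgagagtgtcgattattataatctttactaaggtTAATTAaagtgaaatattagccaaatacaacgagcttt

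The zfh2 promoter sequence holds TAATTA at 2 places within 60 bases of its summit, and the zfh1 upstream sequence holds it once. Neither of the strongest summits, that of zfh2 and that of zfh1, has TAATTA in the window shown.

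Binding at zfh2 was the strongest of the 7 genes and lay in front of the gene. The gene (FBgn0004607, chromosome 4, 501810 to 540874, plus strand) has a single annotated start. Its upper region (4, 497846 to 498009) was intergenic, with the summit 3874 bp upstream of the start. The peak caller's signal there, a value with no stated unit that serves only to rank peaks within a list, was 378 in the series list, 144 in replicate 1 and 236 in replicate 2. It ranked 174 of 4781, and 96.4% of all regions were weaker. Replicate 2 was the higher. The log2 of replicate 1 over replicate 2 was -0.72, further from 0 than the SD of 0.49 of that ratio across all regions. Both replicates nevertheless placed the region among their strong peaks, at rank 400 in replicate 1 and 103 in replicate 2. The region was 164 bp wide, whereas 82.5% of regions had a width of 330 bp. Such a width was not rare among strong regions: the 479 regions of under 200 bp had a median signal of 281 and a lowest of 94.5.

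The other zfh2 region lay at the promoter (4, 501449 to 501778), with its summit 196 bp upstream of the start. Its signal was 96.4 in the series list, 35.8 in replicate 1 and 37.2 in replicate 2. The replicates thus differed little in level. They did not share the call, since the region was in the thresholded list of replicate 1 alone. The summits of their own peaks lay 103 bp apart.

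Chromosome 4 is the small, largely heterochromatin-like chromosome of this species, and it held 6 regions in all, or 4.45 per Mb, against 31.5 to 39.8 per Mb on the other chromosome arms. zfh2 had 2 of these 6, and its upstream region was the strongest of them. PlexA, a semaphorin receptor gene, followed with 301, then dati with 175 and fuss with 154, and Sox102F had the weakest at 80.5. The fuss region had a value in replicate 2 (80.3) and none in replicate 1. Candidate peaks of any strength were also sparse around zfh2, with 0.436 per kb in replicate 1 and 0.378 in replicate 2, against 0.883 and 0.667 per kb over the 6 chromosomes. The candidate peaks of the series ranked list that were assigned to zfh2 numbered 12 and ended 3.73 kb after its start, in a gene of 39.1 kb. The stretch of chromosome nearest to its start was shorter than the gene, at 34.4 kb. Candidates in the gene that lay nearer to another gene's start were therefore not counted here.

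**Figure D1:**
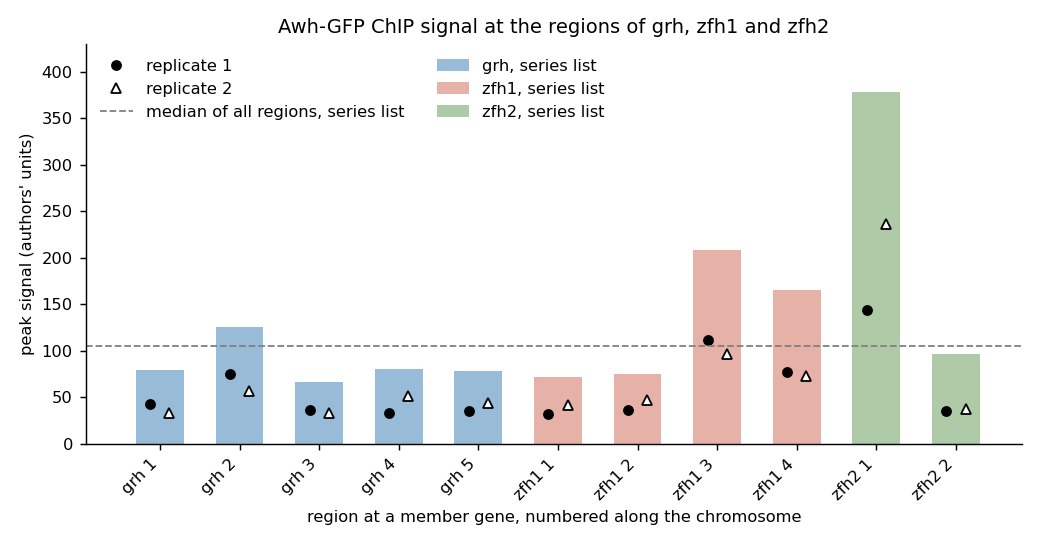
Signal of the 11 regions of grh, zfh1 and zfh2, in the authors' units (vertical axis), with regions numbered along the chromosome. Bars give the series list, filled circles replicate 1 and open triangles replicate 2, and the dashed line is the median of all regions, 105. A single zfh2 region at 378 stands above all others, 2 zfh1 regions reach 209 and 165, and 4 of the 5 grh regions lie between 66.3 and 80.3.

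At zfh1 binding was spread from upstream of the gene to beyond its 3' end. The gene (FBgn0004606, 3R, 30765926 to 30789202, plus strand) has 2 annotated starts 17.3 kb apart. The strongest region (3R, 30781643 to 30781972) was intronic and its summit lay 1450 bp upstream of the inner start. It had a signal of 209 in the series list, 111 in replicate 1 and 96.9 in replicate 2. It ranked 668 among the 4781 regions. In the ranked lists of single replicates it was at rank 671 of 118176 candidate peaks in replicate 1 and at 790 of 89289 in replicate 2. The noncoding antisense gene asRNA:CR45189 overlaps it.

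The next region of zfh1 (3R, 30789454 to 30789783) had its summit in intergenic sequence 417 bp past the annotated end of the gene, and the edge of the region reached into wts, the gene of a kinase of the Hippo pathway. Its signal was 165 in the series list, 77.1 in replicate 1 and 73.2 in replicate 2. Both of these zfh1 regions were in each replicate's own thresholded list. The assignment of this region to zfh1 rests on protein-coding starts: the start of a noncoding transcript was 2039 bp from the summit, nearer than the inner zfh1 start at 6361 bp, and with starts of any biotype zfh1 kept the other 3 regions.

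The remaining zfh1 regions were weaker. An upstream region (3R, 30761234 to 30761563), 4527 bp before the outer start, had a signal of 72.0 in the series list, 32.5 in replicate 1 and 42.2 in replicate 2. An intronic region (3R, 30767156 to 30767485), 1395 bp after that start, had 75.2 in the series list, 36.6 in replicate 1 and 47.2 in replicate 2. Replicate 2 was higher at both, with a log2 of replicate 1 over replicate 2 of -0.37 in each case, which is within the SD over regions. The upstream region was in the list of replicate 2 alone, and the intronic region was in neither replicate's own list.

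The promoter of the outer zfh1 start had no region in the conservative list but had a region in the optimal list, the broader list made from both replicates (3R, 30765587 to 30766128, summit 174 bp upstream). Its signal was 57.9 in the series list, 24.1 in replicate 1 and 32.3 in replicate 2. Its score, which follows the irreproducible discovery rate (IDR) and must reach 830 to enter a list, was 535 in the ranking behind the conservative list and 916 in the one behind the optimal list.

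Binding at grh was numerous and all of it was intronic. Apart from the strongest region it was weak, below the median of 105 over all regions. The gene (FBgn0259211, 2R, 17801132 to 17842820, plus strand) has 5 annotated starts. Its strongest region (2R, 17804790 to 17805119) lay 2088 bp after the third start, with a signal of 126 in the series list, 75.3 in replicate 1 and 57.1 in replicate 2. It ranked 1782, and it was the single grh region present in both replicates' own lists. A weaker region (2R, 17803845 to 17804174) had its summit 945 bp before that one, with a signal of 79.6 in the series list, 43.2 in replicate 1 and 32.9 in replicate 2. The third region of this group (2R, 17807500 to 17807829), 4798 bp after the same start, was the weakest of all 11, at 66.3 in the series list, 36.6 in replicate 1 and 33.6 in replicate 2. These 3 regions were higher in replicate 1.

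The 2 grh regions further along the gene were higher in replicate 2 and were in the list of that replicate alone. One (2R, 17814906 to 17815235) lay 727 bp after the fourth start, with a signal of 80.3 in the series list, 33.1 in replicate 1 and 51.3 in replicate 2. The log2 of replicate 1 over replicate 2 was -0.63 there, further from 0 than the SD of 0.49 over all regions, and the summits of the replicates lay 137 bp apart, the widest gap of the 11. The other (2R, 17825381 to 17825710) lay 1981 bp after the fifth start, with a signal of 78.7 in the series list, 35.3 in replicate 1 and 44.0 in replicate 2.

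The last grh region and the fifth grh start both fall inside a span of 8922 bp that the annotation gives to a copy of the transposable element roo. Of all regions, 0.502% overlap an annotated element. The sequence under that annotation is not repeated: 22 of 22 words of 50 bases sampled along the span occurred once on the 6 chromosomes, whereas 0 of 23 words sampled from another annotated roo copy, on 3R, did so, with a median of 117 occurrences. All 50-base words sampled from the 11 member regions also occurred once.

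Among genes with 5 regions, of which there were 62, those with a median signal nearest to the 79.6 of grh were en (79.9), a homeobox gene of segment polarity, CG14662 (80.2) and sano (80.3). This likeness is in the number of regions and their median in the series list, over 1 list, and nothing more.

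**Figure D2:**
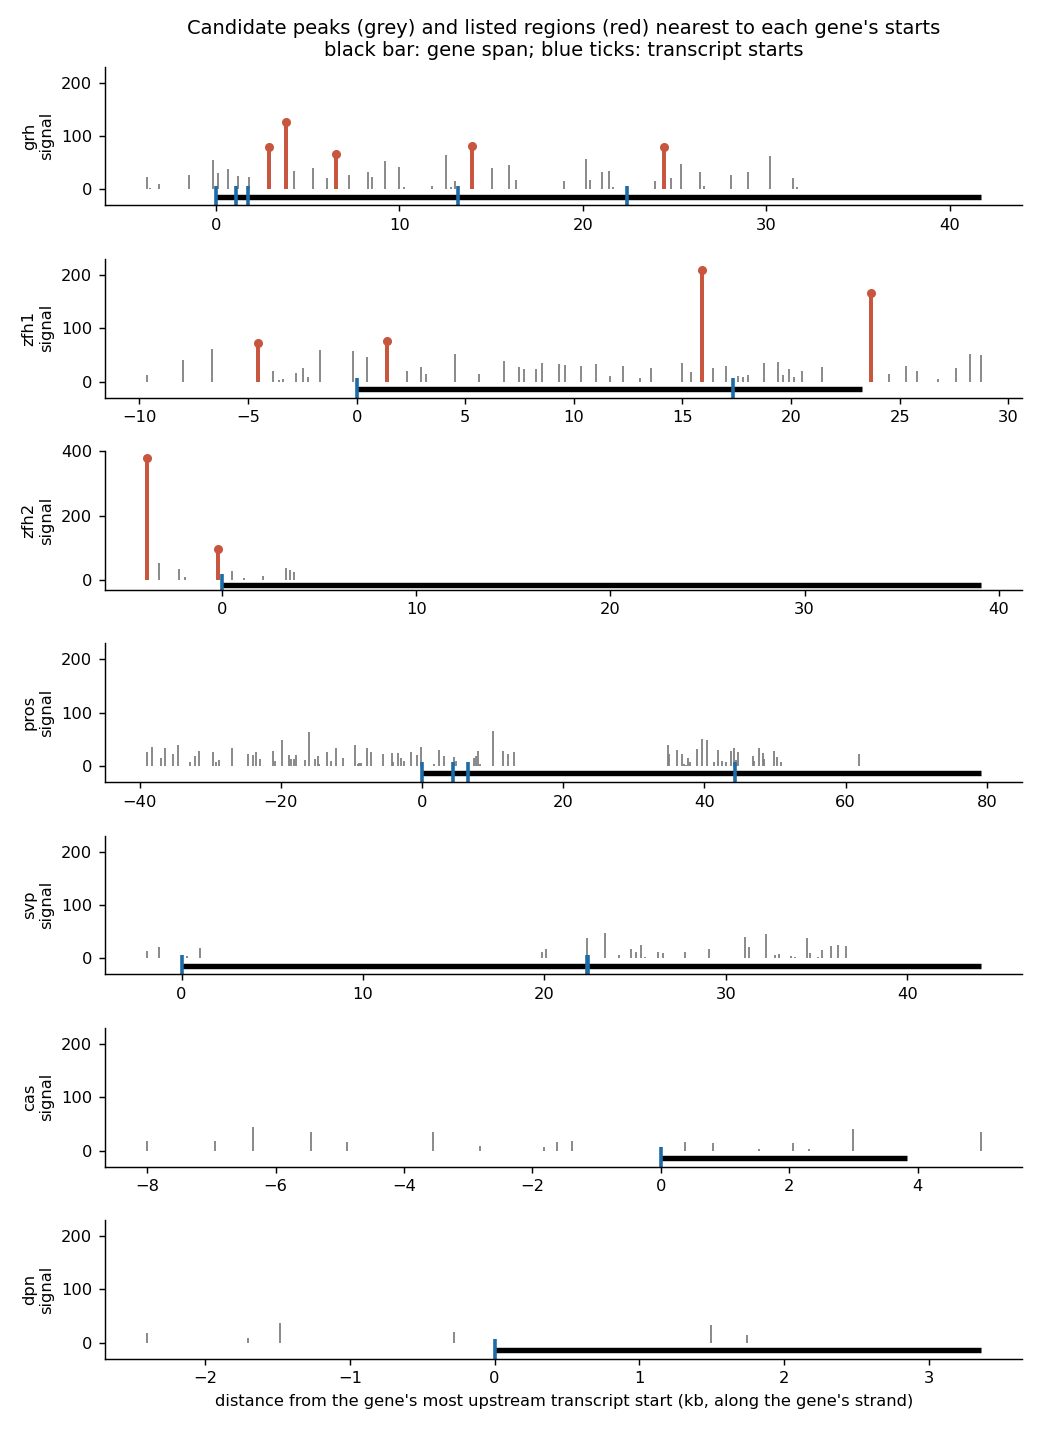
Peaks assigned to each of the 7 genes, by distance in kb from the gene's most upstream start along its strand (horizontal axis) and by signal in the series ranked list (vertical axis, wider scale for zfh2). Grey lines are candidate peaks, red lines with a dot are the listed regions, the black bar is the gene and blue ticks are starts. Red regions appear at grh (5), zfh1 (4) and zfh2 (2) and at none of the other genes, whose grey candidates stay at or below 65.8.

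The 4 genes without a region were not empty of candidate peaks, but none of these passed. The strongest candidate at pros, in an intron 3545 bp after a start (3R, 11338360 to 11338689), had a signal of 65.8 in the series ranked list, 34.6 in replicate 1 and 29.0 in replicate 2. Its score of 772 was the highest among candidates of the 4 genes in the ranking behind the conservative list, and 233 of the 4781 listed regions (4.87%) had a lower signal. In the ranking behind the optimal list the same candidate scored 413. A candidate 15955 bp upstream of pros had a signal of 63.5 and a score of 571.

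At svp (FBgn0003651, 3R, 12258737 to 12302785) the strongest candidate of the series ranked list lay 929 bp after a start in coding sequence, with a signal of 48.2 in that list, 29.4 in replicate 1 and 19.0 in replicate 2, and a score of 382. Replicate 2 alone had a higher peak within 13 bp of a svp start, with a signal of 38.2 and a score of 586 in its own ranking. At cas (FBgn0004878, 3R, 5712975 to 5716805) the strongest candidate was 6352 bp upstream, at 44.5 in the series ranked list, 34.3 in replicate 1 and 15.1 in replicate 2, with a score of 168. The weakest of the 4 was dpn (FBgn0010109, 2R, 8228971 to 8232330), whose strongest candidate, 1479 bp upstream, had 37.5 in the series ranked list, 14.2 in replicate 1 and 20.2 in replicate 2. Its score was 41. The scores depended on the ranking. In the one behind the optimal list these candidates scored 524 at svp, 370 at cas and 553 at dpn, against 413 for that of pros. The signals compare with a median of 14.5 over all candidate peaks in replicate 1 and 14.6 in replicate 2, and with a lower quartile of 81.4 for the listed regions of the series. That quartile does not part listed from unlisted peaks, since 6 of the 11 member regions were below it too. Entry to the list went by the score.

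None of the 4 genes had a region in the optimal list, in the list of replicate 1 alone or in that of replicate 2 alone either. In order of their strongest candidate in the series ranked list the 7 genes ran zfh2, zfh1, grh, pros, svp, cas and dpn. Between neighbours in this order, pros and svp cannot be ranked from the replicates, since pros was higher in replicate 1 (34.6 against 29.4) and lower in replicate 2 (29.0 against 38.2). The same holds for svp and cas, which exchanged places in replicate 1 (29.4 against 34.3), and cas and dpn were nearly level in replicate 2 (20.7 against 20.2). For zfh2, zfh1 and grh both replicates gave the order of the series list.

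**Figure D3:**
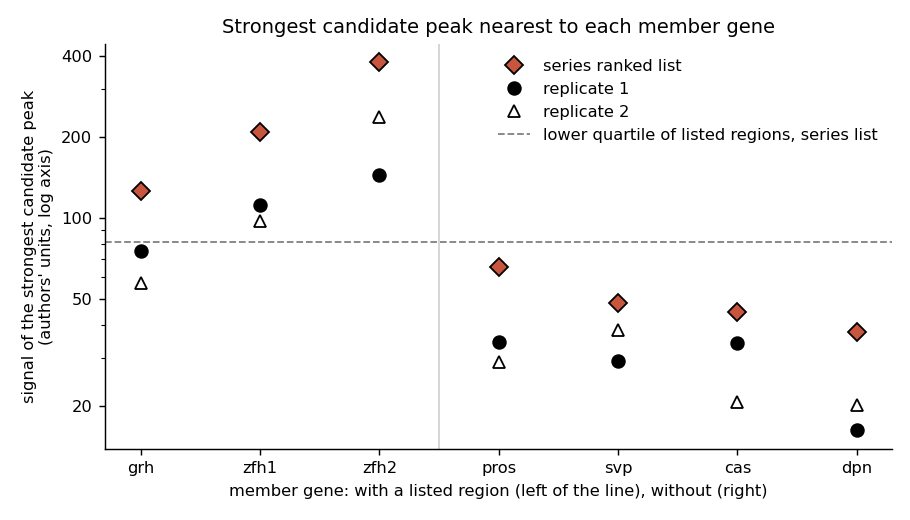
Signal of the strongest candidate peak assigned to each gene (vertical axis, log scale, authors' units) in the series ranked list (diamonds), replicate 1 (circles) and replicate 2 (open triangles). The genes with a listed region are left of the grey line and the others right of it, and the dashed line marks the lower quartile of listed regions, 81.4. The series values of pros, svp, cas and dpn run from 65.8 down to 37.5, all under that line. Those of grh, zfh1 and zfh2 run from 126 to 378, all above it. The line is not the limit for entry to the list, which went by the score.

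The nearest-start rule leaves out binding inside the body of pros. The gene (FBgn0004595, 3R, 11328480 to 11407627) spans other genes, and 2 listed regions lie within it. One (3R, 11392854 to 11393183) lies in a 3' UTR of pros itself, 20231 bp from the nearest pros start and 14899 bp from that of mRpL40, a mitochondrial ribosomal protein gene to which the rule gave it. Its signal was 164 in the series list, 89.5 in replicate 1 and 76.1 in replicate 2, and it was in both replicates' own lists. Its signal in the series list was higher than that of 8 of the 11 regions counted above. The other (3R, 11352907 to 11353236) is at the promoter of the nested gene KP78b, with a signal of 89.4 in the series list and 33.9 in replicate 1, and the ranked list of replicate 2 held no peak that overlapped it. pros is therefore without a region by the rule, and not without binding along its span.

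The surroundings of the other genes were also bound in part. The nearest listed region outside the gene's own stretch was 5098 bp from dpn, at pnut, a septin gene (signal 91.7), and 11088 bp from cas, at plx (75.6). For svp it was 37063 bp away, at CG4860 (126). Neighbours were taken as the protein-coding genes with the first start beyond a gene's outermost starts, which leaves out KP78b, nested in pros. Beside cas, plx had 2 regions and CG1239 none. Beside svp, CG3942 and CG4066 had none. CG5214 and mRpL40, beside pros, had 1 each. Beside dpn, CG34217 had none and pnut had 1.

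By the rule a gene could collect regions only from the stretch of chromosome nearest to its starts. For the members this stretch was 82.7 kb at pros, 38.8 kb at zfh1, 36.5 kb at grh, 34.4 kb at zfh2, 22.5 kb at svp, 13.4 kb at cas and 4.27 kb at dpn, and the median over all protein-coding genes was 4.32 kb. The region densities were 0.137 per kb at grh, 0.103 at zfh1 and 0.0581 at zfh2, against 0.0357 per kb over the 6 chromosomes. At that overall rate the 7 stretches would together hold 8.31 regions, where 11 were found, and the 4 genes without a region would hold 4.39, of which 2.95 fall to pros. Of the 104 genes with a stretch at least as long as that of pros, 33 had a region (31.7%). Of the 583 genes with one at least as long as that of grh, 284 had (48.7%). The same share was 42.4% for cas, 46.5% for svp, 29.6% for dpn, 49.0% for zfh1 and 48.6% for zfh2. The 42.9% of members with a region lay within the range of these shares. Awh itself, the gene of the precipitated factor, had 14 regions at 0.44 per kb.

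The member regions were mostly outside promoters. In all, 7 of 11 were intronic, 3 intergenic and 1, the zfh2 promoter region that the list of replicate 2 lacks, lay within 500 bp of a start, where all regions had 43.5% in introns, 21.7% in intergenic sequence and 32.1% within 500 bp of a start. The distance from summit to start had a median of 1981 bp at the members, with a range of 196 to 6361 bp, and 1603 bp at the other regions. The signal had a median of 80.3 at the members and 105 at the other 4770 regions. Of the 11, 4 were above the median of all regions and 6 were below the lower quartile.

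Agreement between the replicates was uneven. Of the 11 regions, 4 were in both replicates' own thresholded lists (all regions, 43.3%), 1 in that of replicate 1 alone, 3 in that of replicate 2 alone and 3 in neither (all regions, 26.8%). The median signal was 36.6 in replicate 1 and 47.2 in replicate 2 at the member regions, and 52.5 in replicate 1 and 53.2 in replicate 2 at the other regions. Taken as the log2 of replicate 1 over replicate 2, the difference was centred on -0.055 (median, with an SD of 0.39) at the members and on 0.021 (SD 0.49) at the others. Replicate 1 was higher at 5 regions and replicate 2 at 6, and 9 of the 11 were within 1 SD of the median of the others. The 4 regions found in both replicates' own lists were those with the 4 highest signals.

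**Figure D4:**
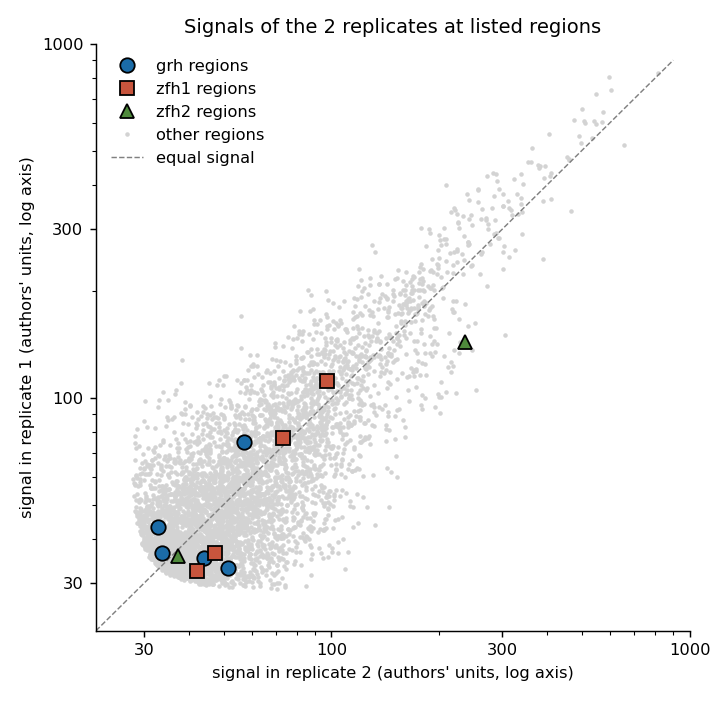
Signal in replicate 1 (vertical axis) against replicate 2 (horizontal axis), both log scales in the authors' units, for the regions of grh, zfh1 and zfh2 and for the other regions (grey dots) with a peak in both replicates. The dashed line marks equal signal. Of the 11 member regions, 7 sit at the low end, at most 43.2 in replicate 1 and 51.3 in replicate 2, and the zfh2 upstream region lies to the right of the line, at 144 in replicate 1 and 236 in replicate 2.

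Sequence was searched within 100 bp of each summit, on both strands. TAATTA lay in 4 of the 11 member windows and in 19.7% of all windows. Those 4 were the grh region of highest signal, the grh region after the fourth start, the zfh1 upstream region and the zfh2 promoter region. In each a site began within 30 bp of the summit of the series list. At these 4 regions the summit of replicate 1 lay 52 to 110 bp from that summit, and that of replicate 2 lay 1 to 27 bp from it. In the lists of single replicates TAATTA lay in 1 member window with replicate 1 alone and in 3 with replicate 2 alone. AATATT, a palindrome of the same base composition, lay in 3 of 11 member windows and 24.4% of all windows. ACAGTG lay in 3 of 11 and 16.1%, among them the strongest zfh1 region. TAATTG, a related homeodomain site added after the sequences had been seen, lay in 5 of 11 and 21.1%, among them the zfh2 upstream region, and the letters of TAATTG overlap those of TAATTA by the shared TAATT. With 11 windows these shares are a description only, and a match does not show which protein was bound. The member windows had a median GC content of 35.8%, from 31.3 to 57.2%, and the other windows 38.8%.

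Binding was also found at some genes of each of 4 further lists of neuroblast biology, chosen with earlier results of these data known. The lists held 40 names, of which 39 matched the annotation, and 17 of the 39 (43.6%) had at least 1 region, against the 20.4% of all protein-coding genes. Their median stretch of 17.1 kb was longer than the 4.32 kb of all genes. Among all genes with a stretch at least as long as that of cas (13.4 kb) the share was 42.4%. With that of svp (22.5 kb) as the limit it was 46.5%, so the 43.6% was near the share of genes with long stretches. Of the 46 regions at the 39 listed genes 5 were within 500 bp of a start.

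Among 11 temporal factor genes 3 had a region. These were slp2, a forkhead gene, with 1 region of signal 380 (202 in replicate 1 and 180 in replicate 2), hth, a TALE homeobox gene, with 12 regions up to 342, and D, a Sox gene, with 5 up to 241. The early temporal genes hb, Kr, nub and pdm2 had none. Among 10 genes of neuroblast identity 5 had a region, all below the median of 105 over all regions: klu (102), wor (101), SoxN (94.2) and nerfin-1 (89.8) had the highest signals, and ase, which encodes a proneural-family bHLH factor of neuroblasts, had none.

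Genes of asymmetric division were bound in 7 of 13 cases and included the strongest values. The polarity gene baz had 4 regions, up to 627 (344 in replicate 1 and 280 in replicate 2), brat, a translational repressor that acts in the differentiating daughter cell, had 5 up to 470, numb, a Notch inhibitor, had 1 of 290, and dlg1 had 2 up to 172. mira, the adaptor that carries Pros protein to the daughter cell, and insc had none. Of 5 genes of glia and neurons, elav had 2 regions, up to 361, and ftz had 1 of 103. The upstream zfh2 region, at 378, lay within the range of these strongest regions. The strongest grh region, at 126, lay below that of dlg1 and above that of ftz.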

How the data were processed

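Peak lists from 2 biological replicates of 1 group were used. The authors deposited them on dm6, per the labels, as ranked lists of candidate peaks and lists thresholded on the IDR, for each replicate and for both together. The names of aligner and caller were not given in the sources used here. Each peak has a signal value and a score (a whole number up to 1000), both the authors' as deposited, and signal served to describe peaks and order them inside 1 list. Every conservative peak scored at least 830. The summit offset was also read from the deposited lists.

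Peaks on 2L, 2R, 3L, 3R, 4 and X were kept (5024 conservative peaks), overlapping peaks were merged with the summit of the strongest, and each summit was assigned to the nearest start of a protein-coding transcript (Ensembl release 115, BDGP 6.54, on the assembly behind dm6). A replicate's value is its strongest ranked peak that overlaps a region by at least 1 bp. Words of 50 bases, every 40 bases in regions, were counted on both strands. Python 3.11.15, numpy 2.4.6 and pandas 2.3.3 were used, and the steps were tested on simulated peaks. No control was analysed, depth is unknown, and no test was made. The members, lists and alternatives were chosen with earlier results of these data known. Named genes are the members, Awh, up to 4 bound genes of highest signal per list, the 3 genes most like grh, and neighbours of members without a region; genes without a region in the other lists, the other chromosome 4 genes and genes at regions nearest to or inside members were named after their values were seen.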

Additional observations from a re-analysis of the deposited data

How the results depend on the processing

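The 3 genes with a region (grh, zfh1 and zfh2) and the 4 without were the same with the optimal list, with either replicate alone, without merging, in the stronger 50% of regions, with starts of any biotype and within 10 kb of a start. Not all of these settings could change the result. The stronger 50% and the 10 kb limit only take regions away, so the 4 genes could not gain one there. The 10 kb limit could remove no member region, since the farthest summit lay 6361 bp from its start. Leaving out merging could not alter the member regions, since none was joined from overlapping peaks. The number of member regions was 11 in the conservative and the optimal list, and ran from 5 without replicate 2 to 7 without replicate 1. In the stronger 50% of regions it was 4, by the construction of that set. The median signal of 80.3 was higher than that of either replicate's own list, which was 57.1 without replicate 1 and 77.1 without replicate 2, on the scale of a single replicate. Promoter regions numbered 1, against 2 with the optimal list or within 1000 bp of a start, 0 in the stronger 50%, and 0 to 1 with a replicate left out. TAATTA lay in 4 regions, in 1 of the stronger 50%, and in 1 to 3 with a replicate left out; windows of 50 and 200 bp gave 4 and 6. Of the other neuroblast genes 17 had a region, 20 with the optimal list, 14 with either replicate alone and 10 in the stronger 50%, settings added after the data were seen. The median log2 ratio of the replicates was -0.32 with the optimal list. The causes were not tested. No paired analysis was possible because the series has a single group. Depth is unknown, so a member without a region is one not detected in these lists.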

Other observations

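The fifth annotated grh start and the grh region behind it lie where the annotation places a copy of the element roo, although all 22 words sampled from that span occurred once on the 6 chromosomes. The placement of the element in the annotation would need a check before the region is read as one at a transposon.

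The optimal list has the zfh1 promoter region (score 916) and lacks the grh region 1143 bp after the third start (826, where the conservative ranking gave 934), so each joint list holds 1 member region that the other does not.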
